A study of Homo sapiens with 6 samples.

Results

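The MYC, MAX and MXD network is a set of transcription factors that pair through a basic helix-loop-helix and leucine zipper region and bind the E-box, the DNA word CACGTG. The 10 genes *MYC*, *MYCL*, *MAX*, *MXD1*, *MXD3*, *MXD4*, *MXI1*, *MNT*, *MLX* and *MLXIP* were taken by their symbols from the 22807 genes of the table, and all 10 passed the filter on low values that 12862 genes passed. RNA was sequenced from MDA-MB-453, an established HER2+ breast cancer cell line, in 6 libraries. The 3 control libraries came from cells given scrambled siRNA (labelled WT), and the other 3 came from cells given siRNA against *DUSP6* (labelled DUSP6 KD), a phosphatase that removes the activating phosphates from ERK. All cells were grown in RPMI with serum and antibiotics and shared the same line. Several different siRNAs were used per group, and it is not known which served in which library, so each group's libraries were taken as replicates. Nothing in the labels says that they came from separate cultures. P-values measure only the spread between these libraries, which may be technical and may include differences between the siRNAs.

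MYC and MYCL activate genes as heterodimers with MAX, which also pairs with MXD1, MXI1, MXD3, MXD4 and MNT. These 5 partners recruit SIN3 and NCOR corepressors and act on the same E-boxes in the opposite direction. MLX pairs with MLXIP (MondoA), a sensor of glycolytic intermediates, and with some MXD proteins and MNT, so it links the network to nutrient supply. In breast cancer cells MYC is known for driving ribosome production, nucleotide synthesis and growth, and ERK signalling is known to stabilise the MYC protein. RNA values say nothing of protein level or phosphorylation.

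A value is the reads of a gene relative to the library size after edgeR's TMM scaling (counts per 1e+06 scaled reads), as the authors deposited it. The libraries held 45546981 to 85729785 reads, so a single read was worth 0.0121 to 0.0202 and the spread between libraries set the precision. *DUSP6* (Entrez gene 1848, chromosome 12) had values of 209, 110 and 114 with scrambled siRNA and 39.4, 24.5 and 35.2 with *DUSP6* siRNA, without overlap between the groups. Its log2 fold change on log2(value + 1) was -2.05 (standard error, SE, 0.25, limma adjusted p = 3.09e-04), and 28.6% of its exon sequence is shared with a lncRNA gene, so its value is uncertain. The luminal markers used as a check (*ERBB2*, *ERBB3*, *FOXA1*, *GATA3*, *KRT8*, *KRT18*, *EPCAM*) were detected in all 6 libraries, with 17.1% of the exon sequence of *KRT18* shared with *KRT8*, and had a sum of 3327 to 4423 against 2475 to 2641. Of 7 markers of immune, stromal and basal cells, *PTPRC* stayed at or under 0.081 and *COL1A2* at or under 0.134, while *COL1A1* alone stood at 80.7 to 105 against 162 to 192, so that the sum of the list was 87.0 to 112 against 168 to 198. The interferon-induced gene *IFIT1*, chosen after its values were seen, was higher with *DUSP6* siRNA by 7.19 on the log2 scale (adjusted p = 1.51e-06 by limma). The part of these differences in the values of the network was not tested.

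RefSeq promoter windows (GRCh38.p14, 250 bases before to 50 after a start site) were found for 9 of the 10 members, all but *MYC*. The palindromic E-box CACGTG, searched on both strands, stood in the windows of 3 members, *MXD4*, *MNT* and *MLX*. Of all 27305 genes with a window, tested or not, 8.77% held it, and of all 35116 windows, 7.26%. Among the tested genes with a window, 1290 held it and 8837 did not. The bases around each are shown because they are the motif that the network's own proteins bind, with the E-box in capitals. The *MXD4* site lies at chr4:2262322-2262359 on the minus strand, 238 bases before the start. The *MNT* site lies at chr17:2401228-2401273 on the minus strand, 193 bases before the start. The *MLX* site lies at chr17:42567030-42567075 on the plus strand, 50 bases before the start.
MXD4: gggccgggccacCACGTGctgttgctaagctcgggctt
MNT: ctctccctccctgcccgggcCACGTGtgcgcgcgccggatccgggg
MLX: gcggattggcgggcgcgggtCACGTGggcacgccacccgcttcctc
Outside the shared word the 3 stretches differ, and the word alone says nothing about occupancy in these cells.

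To set the members side by side, values were divided by the length of the union of a gene's exons in kilobases (GENCODE v44). With scrambled siRNA, *MYC* led at 25.2 ± 7.16 per kb (SD, n = 3), above 85.9% of the tested genes with a length. *MAX* followed at 13.0 ± 1.98 per kb and *MLX* at 9.45 ± 3.06 per kb, and the ranges of these neighbours overlapped. *MXD1* (4.91 per kb), *MXD4* (4.77 per kb) and *MLXIP* (3.47 per kb) came next, and *MXD4* overlapped each of the other two. *MXD3* (2.89 per kb), *MNT* (2.04 per kb) and *MXI1* (1.28 per kb) followed without overlap between neighbours. *MYCL* was last at 0.656 ± 0.122 per kb, above 10.8% of the genes. The order was the same with *DUSP6* siRNA. Dividing by the longest transcript instead kept the top 3 and the last 3 in place and moved *MXD1* from rank 4 to rank 7 with scrambled siRNA.

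With *DUSP6* siRNA, *MYCL* and *MAX* fell, and none of the other 8 members passed the test at an adjusted p under 0.05. The 2 members called lower compare with 24.7% of all genes tested called lower, and the 0 called higher with 19.7% called higher, so the share that fell was close to the background. At an unadjusted p under 0.05 limma gave 3 lower and 0 higher, the third being *MNT*, and edgeR's quasi-likelihood test on whole reads called 3 lower and 0 higher at its adjusted p. The median log2 fold change of the members was -0.22, against -0.01 over all genes tested. In 4 members (*MYCL*, *MAX*, *MNT* and *MLXIP*) every *DUSP6* siRNA value lay below every scrambled siRNA value, a pattern that 31.1% of all genes showed, and in 0 members did every value lie above, against 26.7% of all genes. Without *DUSP6* siRNA replicate 2 the number of members called lower was 1, and without scrambled siRNA replicate 2 it was 3, with 1 called higher.

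**Figure D1:**
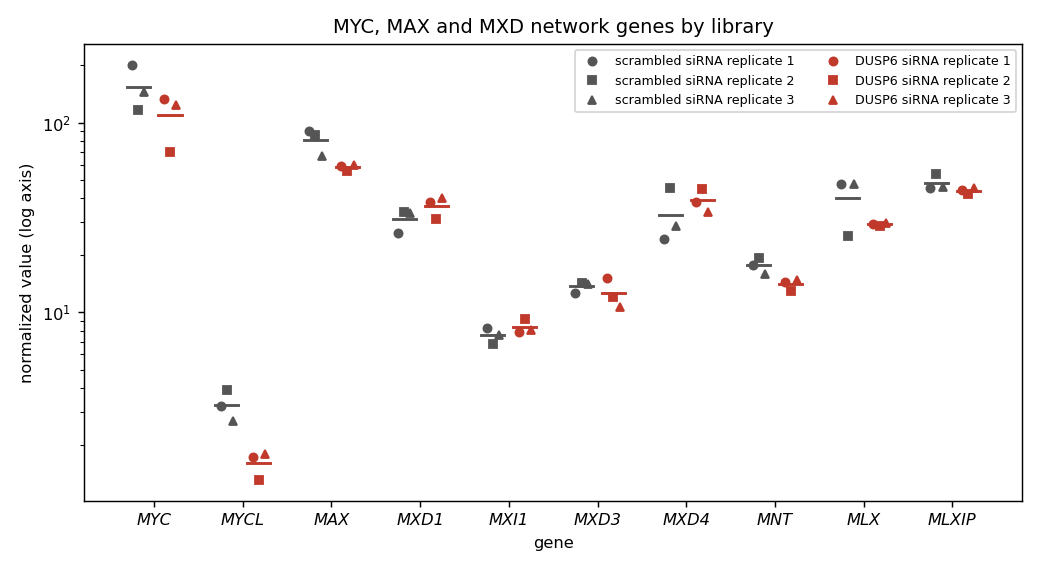
Normalized value of each network member (log axis) in the 3 scrambled siRNA libraries (grey) and the 3 DUSP6 siRNA libraries (red), with the replicate given by the marker shape and the group mean by the line. The groups do not overlap in MYCL, MAX, MNT and MLXIP, with a small gap in MLXIP, while the 3 MYC values of each group spread widely and overlap.

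Among the activating partners, *MYC* (Entrez gene 4609, chromosome 8, 127735434 to 127742951, GRCh38) had values of 202, 116 and 145 with scrambled siRNA and 134, 70.2 and 124 with *DUSP6* siRNA. Replicate 2 was the lowest of each group, and 2 of the *DUSP6* siRNA libraries lay above scrambled siRNA replicate 2. The mean was 154 ± 43.8 against 109 ± 34.3 (SD, n = 3), and the log2 fold change was -0.51 (95% interval -1.09 to 0.08, limma adjusted p = 0.139; two-sided exact permutation p = 0.3). The interval holds 0. The fold change moved to -0.22 without *DUSP6* siRNA replicate 2 and to -0.69 without scrambled siRNA replicate 2.

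*MYCL* (Entrez gene 4610, chromosome 1, 39895428 to 39901917), the paralog first found in lung cancer, had values of 3.21, 3.89 and 2.68 with scrambled siRNA and 1.74, 1.31 and 1.79 with *DUSP6* siRNA. The groups did not overlap. The mean fell from 3.26 ± 0.608 to 1.61 ± 0.265 (SD, n = 3), and the log2 fold change was -0.70 (SE 0.14, limma adjusted p = 0.00384; two-sided exact permutation p = 0.1, the smallest that 3 libraries against 3 allow). The ratio of the means was 0.495, and the log2 fold change is closer to 0 than this ratio because 1 was added to low values. These values rest on 86 to 222 reads per library. The third paralog, *MYCN*, is no member of the set and was lower too, at 2.16, 2.76 and 2.11 against 0.688, 0.428 and 0.742 (log2 fold change -1.05, limma adjusted p = 3.33e-04).

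*MAX* (Entrez gene 4149, chromosome 14, 65006101 to 65102695) encodes the shared partner of the MYC and MXD proteins. Its values were 90.2, 86.5 and 67.0 with scrambled siRNA and 59.1, 55.5 and 59.5 with *DUSP6* siRNA. The groups did not overlap, and scrambled siRNA replicate 3 stood nearer to the *DUSP6* siRNA libraries than to the other controls. The mean fell from 81.2 ± 12.4 to 58.1 ± 2.22 (SD, n = 3), and the log2 fold change was -0.47 (SE 0.12, limma adjusted p = 0.0125). The share of the summed value in 15 mitochondrially encoded genes had the same split, at 17.6%, 17.5% and 11.1% against 11.2%, 11.7% and 11.6%, and its part in the *MAX* values was not tested. Without *DUSP6* siRNA replicate 2 the fold change was -0.43 and the call was lost (limma adjusted p = 0.0576). Annotated exons of other genes cover 16.1% of those of *MAX*, of which *FNTB* covers 13.1%, so its value is uncertain. *FNTB* itself had 2.69 ± 0.151 against 2.37 ± 0.170 (SD, n = 3) and was not called (log2 fold change -0.13).

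**Figure D2:**
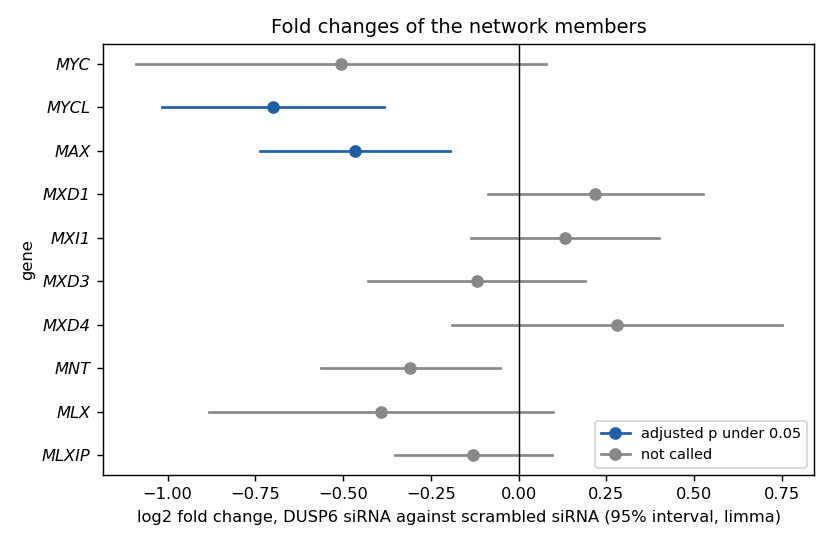
Log2 fold change of each member between DUSP6 siRNA and scrambled siRNA with its 95% interval from limma (blue, adjusted p under 0.05; grey, not called). The intervals of MYCL (-1.02 to -0.38), MAX (-0.74 to -0.20) and MNT (-0.56 to -0.05) lie below 0, and those of the other 7 members hold 0.

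Of the 5 repressive partners of MAX, 3 had a higher and 2 a lower mean log2 value with *DUSP6* siRNA, and none was called. *MXD1* (Entrez gene 4084, chromosome 2, 69915109 to 69942945), the first known antagonist of MYC, had 26.3, 34.0 and 33.3 against 38.0, 31.1 and 40.2 (log2 fold change 0.22, 95% interval -0.09 to 0.52, limma adjusted p = 0.216). The groups overlapped, as 1 *DUSP6* siRNA library lay below 2 of the controls. *MXI1* (Entrez gene 4601, chromosome 10, 110207605 to 110287365) had 8.32, 6.80 and 7.64 against 7.85, 9.26 and 8.10 (log2 fold change 0.13, 95% interval -0.14 to 0.40). Its groups overlapped too.

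*MXD4* (Entrez gene 10608, chromosome 4, 2247432 to 2262109) varied most among the repressors, with 24.3, 45.3 and 28.7 against 38.2, 44.9 and 33.7 (log2 fold change 0.28, 95% interval -0.19 to 0.75, limma adjusted p = 0.298). Scrambled siRNA replicate 2 was the highest of all 6 libraries, and without it *MXD4* was called higher (log2 fold change 0.53, limma adjusted p = 0.0198). Without scrambled siRNA replicate 1 the fold change was 0.10, and without *DUSP6* siRNA replicate 2 it was 0.18. *MXD3* (Entrez gene 83463, chromosome 5, 177305499 to 177312752), which is linked to S phase, had 12.7, 14.4 and 14.0 against 15.2, 12.1 and 10.6 (log2 fold change -0.12, 95% interval -0.43 to 0.19). Its highest and its lowest values were both in the *DUSP6* siRNA group. Exons of other genes cover 43.7% of those of *MXD3*, and its largest neighbour *PRELID1* fell (log2 fold change -0.93, limma adjusted p = 1.11e-04), so the value of *MXD3* is uncertain.

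*MNT* (Entrez gene 4335, chromosome 17, 2384073 to 2401060), the broadly expressed repressor of the family, had 17.8, 19.4 and 15.9 against 14.4, 13.0 and 14.9. All *DUSP6* siRNA libraries lay below all controls. The log2 fold change was -0.31 (95% interval -0.56 to -0.05), and the limma adjusted p of 0.0517 fell just short of the threshold. The call changed with the setting: *MNT* was called lower by edgeR's quasi-likelihood test (adjusted p = 0.0495), with a pseudocount of 0.1, with quantile normalization, without the trend and without scrambled siRNA replicate 3. A lncRNA gene shares 12.2% of its exon sequence, so its value is uncertain.

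Within the repressor pool, counted per kb of exon union, *MXD1* and *MXD4* made up the largest shares in both groups, while per kb of the longest transcript *MXD3* (6.01) stood above *MXD1* (5.59) with scrambled siRNA. *MXD1* went from 31.0% to 33.6% of the pool and *MXD4* from 29.5% to 33.1%. *MXD3* went from 18.3% to 15.5%, *MNT* from 12.9% to 9.48% and *MXI1* from 8.27% to 8.32%. For *MNT* the 3 shares with *DUSP6* siRNA (9.35%, 8.76% and 10.3%) lay below the 3 with scrambled siRNA (14.8%, 12.2% and 11.8%). These shares are a description without a test.

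Ratios within a library show how the sides of the network stood to each other. Their level depends on the lengths of the genes, so only the differences between libraries can be read. The log2 ratio of the *MYC* value to the *MAX* value was 1.16, 0.42 and 1.11 with scrambled siRNA and 1.18, 0.34 and 1.06 with *DUSP6* siRNA. The groups overlapped over nearly their whole range, and the lowest value of each lay well below the other two. The mean difference was -0.04, with a range of -0.28 to 0.22 when each library in turn was left out.

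The summed value of the 5 repressors was 89.5, 120 and 99.5 with scrambled siRNA and 114, 110 and 108 with *DUSP6* siRNA. Against this sum, the log2 ratio of *MAX* was 0.01, -0.47 and -0.57 with scrambled siRNA and -0.94, -0.99 and -0.85 with *DUSP6* siRNA, without overlap. The difference was -0.58, and it lay between -0.70 and -0.41 when each library in turn was left out. The log2 ratio of *MYC* to the same sum was 1.17, -0.05 and 0.54 against 0.24, -0.65 and 0.21, a difference of -0.62 (-0.92 to -0.31 when each library in turn was left out) in groups that overlapped. Counted per kb, *MYC* made up 69.5%, 49.8% and 59.6% of *MYC*, *MYCL* and the 5 repressors with scrambled siRNA and 54.8%, 39.9% and 54.6% with *DUSP6* siRNA.

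**Figure D3:**
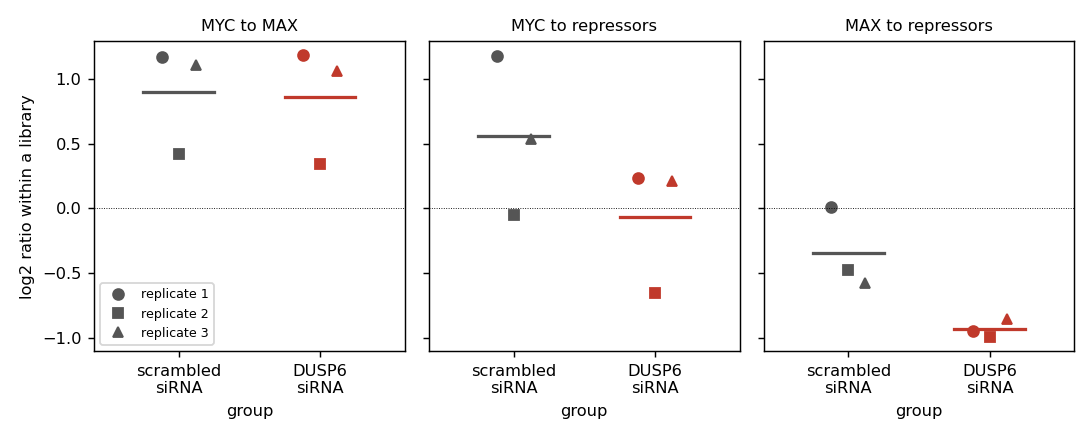
Log2 ratios of normalized values within each library for MYC to MAX, MYC to the 5 repressors summed and MAX to the 5 repressors summed, with scrambled siRNA in grey, DUSP6 siRNA in red, replicates by marker shape and group means as lines. The MYC to MAX ratio repeats the same spread in both groups, and all MAX to repressor ratios with DUSP6 siRNA lie below -0.85, under every control.

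In the nutrient-sensing branch, *MLX* (Entrez gene 6945, chromosome 17, 42567100 to 42573203) had 47.7, 25.2 and 47.8 with scrambled siRNA and 29.4, 28.5 and 29.7 with *DUSP6* siRNA. The *DUSP6* siRNA values were tight, and scrambled siRNA replicate 2 was the lowest of all 6 libraries. The log2 fold change was -0.39 (95% interval -0.88 to 0.10, limma adjusted p = 0.17). Without that replicate *MLX* was called lower (log2 fold change -0.69, limma adjusted p = 0.00104), while the fold change was -0.24 without scrambled siRNA replicate 1 and also without replicate 3. Exons of *PSMC3IP* cover 18.2% of those of *MLX*, so its value is uncertain. *PSMC3IP* itself fell from 5.50 ± 0.412 to 2.33 ± 0.561 (SD, n = 3; log2 fold change -0.97, limma adjusted p = 6.69e-04).

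*MLXIP* (Entrez gene 22877, chromosome 12, 122078756 to 122147344) had the smallest SE of the members (0.10), with 45.1, 53.6 and 45.8 against 44.3, 42.3 and 45.0 (log2 fold change -0.13, 95% interval -0.35 to 0.09). The groups did not overlap, but the gap between the nearest values was small. *MLXIPL* (ChREBP), its relative in liver and fat, had 0 reads in each scrambled siRNA library and 3 to 5 reads in each *DUSP6* siRNA library, too few to compare. *TXNIP*, the best known target of MLXIP and MLX, had 232.7, 232.1 and 232.5 with scrambled siRNA and 289.2, 303.1 and 287.1 with *DUSP6* siRNA. It rose by 0.33 on the log2 scale (SE 0.08, limma adjusted p = 0.00865). *ARRDC4*, the other target looked at, had 28.6, 41.3 and 49.1 against 41.6, 49.9 and 46.5 and was not called (limma adjusted p = 0.301).

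The promoter of *TXNIP* is shown because MLXIP and MLX are known to bind there, at paired E-box-like words spaced by 5 bases. The stretch lies at chr1:145996631-145996687 on the minus strand of GRCh38.p14, with the words CACGAG, the spacer between them and nothing else in capitals.
TXNIP: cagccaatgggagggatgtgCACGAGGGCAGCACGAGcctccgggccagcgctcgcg
The pair begins 88 bases before the start. This spelling, searched on both strands and chosen after the sequence was seen, occurred in 2 of the 35116 promoter windows.

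Around the members, *MGA*, a MAX partner of the repressive PRC1.6 complex, was not called (39.6 ± 1.20 against 41.6 ± 1.34, SD, n = 3; log2 fold change 0.07). Other E-box factors of the same structural class moved in both directions, with 5 of 10 lower and 2 higher, against 24.7% and 19.7% of all genes. Their median log2 fold change was -0.35, or -0.21 with quantile normalization and -0.20 without the filter. *SREBF1*, which drives lipid synthesis genes, fell by 0.83 on the log2 scale, the clock-related repressor *BHLHE40* by 0.74 and the lysosome and pigment factor *MITF* by 0.59. The *MITF* controls spread widely (21.4 ± 7.67 against 13.4 ± 0.602, SD, n = 3), and its limma adjusted p of 0.0408 was near the threshold. *USF1*, a widely expressed E-box activator, rose by 0.53 and *BHLHE41* by 0.52. The antisense gene *BHLHE40-AS1* covers 12.8% of the exon sequence of *BHLHE40*, so its value is uncertain. Without *DUSP6* siRNA replicate 2 only 1 factor of this list was called higher.

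Among 14 coactivators of MYC, 5 were higher and 4 lower, against 19.7% and 24.7% of all genes, with a median of 0.03 that was 0.14 with quantile normalization and -0.03 without scrambled siRNA replicate 1. The acetyltransferases *KAT5* (log2 fold change 0.86) and *KAT2A* (0.59) and the elongation kinase *CDK9* (0.60) rose. *EP400*, a chromatin remodeler (-0.81), *PAF1*, of the elongation complex (-0.61), and the ATPase *RUVBL1* (-0.52) fell. Leaving out *DUSP6* siRNA replicate 2 left 3 coactivators higher. For *KAT5* 38.6%, for *RUVBL1* 13.8% and for *KAT2A* 10.7% of the exon sequence is shared with another gene, so these values are uncertain.

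A list of 11 genes held corepressors that MXD and MNT use and the MYC-bound factor *ZBTB17*. Of these, 4 were lower and 0 higher by limma. Over all genes tested, 24.7% were lower and 19.7% higher. With quantile normalization, or without scrambled siRNA replicate 2, 1 gene of this list was higher. The scaffold *SIN3A*, which binds the MXD proteins directly, fell by 0.64 on the log2 scale, and the nuclear corepressor *NCOR1* fell by 0.51. The median of the list was -0.13. Among 18 genes that set the stability of the MYC protein, 6 were lower and 2 higher, against 24.7% and 19.7% of all genes. Their median was -0.13, or 0.09 with quantile normalization. *SET* (-1.34) and *CIP2A* (-0.60), both inhibitors of the phosphatase PP2A, and the kinase *AURKA* (-0.56) fell, and the deubiquitinases *USP28* (0.34) and *USP36* (0.29) rose. *SET* has near-identical pseudogene copies, so its value is uncertain. The 2 higher calls were 0 without *DUSP6* siRNA replicate 3 and 1 in 4 of the other 5 fits that each left out a library.

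**Figure D4:**
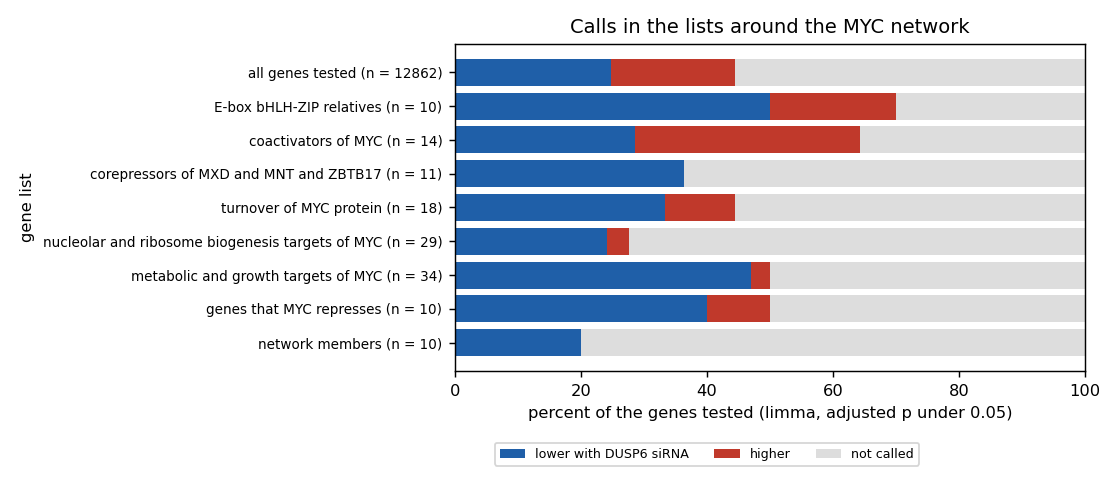
Percent of tested genes called lower (blue), higher (red) or not called (grey) with DUSP6 siRNA in all genes and in the gene lists around the network, with the number tested beside each name. Of the 34 metabolic and growth targets 16 were lower and 1 higher, against 24.7% lower and 19.7% higher over all genes.

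Of 34 tested metabolic and growth targets of MYC, 16 were lower and 1 higher, against 24.7% and 19.7% of all genes. The median log2 fold change was -0.26, or -0.13 with quantile normalization. Lower genes included the glycolytic enzyme *PKM* (682 against 260, log2 fold change -1.39), the fatty acid synthase *FASN* (1318 against 505, -1.38) and the cell cycle factor *E2F1* (120 against 47.6, -1.32). With quantile normalization 6 genes of the list were higher, and without scrambled siRNA replicate 3 there were 7.

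Of 29 nucleolar and ribosome biogenesis targets, 7 were lower, a share close to the 24.7% of all genes, and 1 was higher, against 19.7%. The median was -0.15, or 0.00 with quantile normalization. It was -0.08 without scrambled siRNA replicate 1 and -0.26 without scrambled siRNA replicate 2. *LYAR*, a nucleolar growth regulator, fell from 33.7 to 9.90 (log2 fold change -1.65, limma adjusted p = 1.83e-04), *MYBBP1A* from 42.2 to 24.7 and *MRTO4* from 69.9 to 43.6, while *RRP12* rose from 63.9 to 92.2. The number of lower genes was 4 with quantile normalization, 4 without *DUSP6* siRNA replicate 1 or replicate 3, 3 without *DUSP6* siRNA replicate 2 and 12 without scrambled siRNA replicate 2.

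Of 10 tested genes that MYC is known to repress, 4 were lower and 1 higher, against 24.7% and 19.7% of all genes. The median was -0.25, or -0.04 without *DUSP6* siRNA replicate 2, -0.09 without the filter, -0.13 with quantile normalization and -0.40 at a mean of at least 10. *THBS1*, a matrix protein that inhibits vessel growth (757 against 249, log2 fold change -1.61), the differentiation factor *CEBPA* (-0.92) and *NDRG1* (-0.87) fell. *CDKN1A*, the p21 inhibitor of the cell cycle, rose from 52.1 to 92.7 (log2 fold change 0.83, limma adjusted p = 0.00229). Other genes share 43.9% of the exon sequence of *CEBPA*, so its value is uncertain. Without *DUSP6* siRNA replicate 2 the lower calls were 2, and without scrambled siRNA replicate 2 or with quantile normalization the higher calls were 2.

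Over the whole table, genes with and without the E-box were called in nearly the same shares. Among 1290 tested genes with CACGTG in a promoter window, 24.1% were called lower and 19.5% higher, and among 8837 with a window but without the word, 24.7% were lower and 19.7% higher. The word was held by 16 of the 32 metabolic and growth targets with a window and by 11 of the 24 nucleolar targets. Of all 27305 genes with a window, tested or not, 8.77% held it, a lower share than the 1290 against 8837 of the tested genes. Of the tested targets of these lists, 11 of 26 with the word and 9 of 28 without it were called lower.

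**Figure D5:**
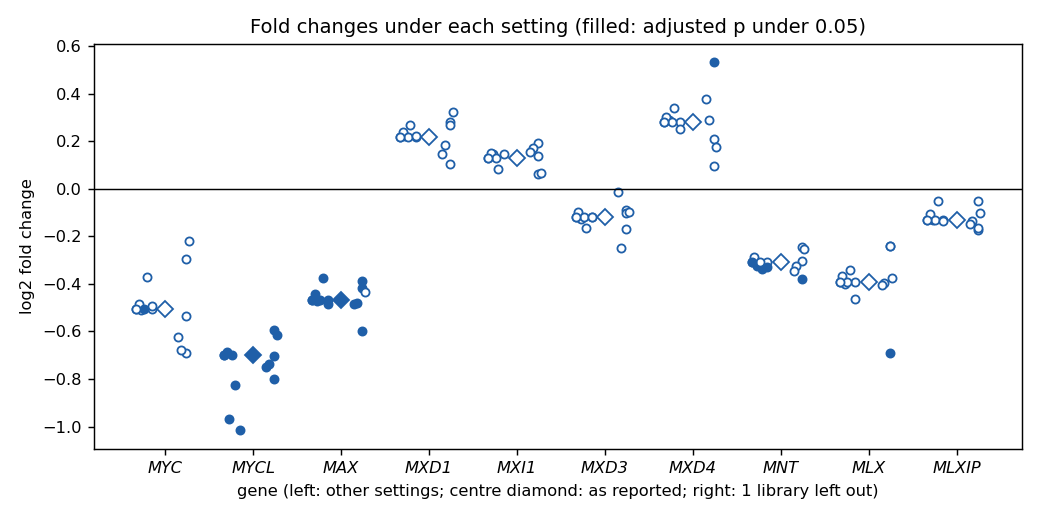
Log2 fold change of each member as reported (diamond), under the other settings (left circles) and with 1 library left out (right circles), filled where the adjusted p was under 0.05. MYCL is filled throughout, MAX is open at 1 point, and no member crosses 0.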

How the data were processed

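Libraries were made with a stranded mRNA kit. The authors aligned the reads to hg38 and counted them on RefSeq gene models with Rsubread 2.0.0 at default settings, and the submitters' processing notes name bcl2fastq and edgeR. The authors deposited 1 normalized signal value per gene and library. All values (100%) were whole multiples of a step per library, within 0.001, and the steps matched edgeR's TMM scaling, so depth and composition were already adjusted. Strand handling is not given in the sources used here.

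Tests were run on log2(value + 1) for 12862 of 22807 genes, those whose mean over the libraries was 1 or more, in R 4.3.3 with limma 3.58.1 (lmFit, eBayes with a trend, Benjamini-Hochberg adjustment, adjusted p under 0.05), after a test on simulated data. The quasi-likelihood test of edgeR 4.0.16, run on the reads that the steps gave back, called 2459 genes higher and 3245 lower. The further settings were each library left out, a replicate block, no trend, quantile normalization, scaling by the median of ratios, a filter at a mean of 10, no filter and a pseudocount of 0.1.

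The members and gene lists were chosen with earlier results of these data known. The genes named were all members, *DUSP6*, up to 3 called genes per list and direction by size of change, and the 3 genes most like *MYC*. *IFIT1*, *FNTB*, *PRELID1*, *PSMC3IP*, *MGA*, *MLXIPL* and *ARRDC4* were added after their values were seen. The list genes *EIF4A1* and *CD3E* were not analysed here, and a few list genes that the rule would name are not reported here. Gene positions and promoter windows came from RefSeq (GRCh38.p14), which held 22359 of the 22807 gene IDs, and exons from GENCODE v44. Network members and list genes described by their own values were reported as uncertain where over 10% of their exon sequence was shared.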

Additional observations from a re-analysis of the deposited data

How the results depend on the processing

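Under the 8 other settings and the 6 fits without 1 library, every member kept its direction wherever it was tested. *MYCL* was called lower in all of these that tested it (log2 fold change -1.02 to -0.68, and -0.80 to -0.60 without 1 library), and it and *MXI1* were not tested at a mean of at least 10, where members called lower were 1 and all genes called higher were 1639. Without 1 library, members called lower ranged from 1 to 3, members called higher from 0 to 1, genes called lower from 2306 to 3581 and genes called higher from 1574 (without *DUSP6* siRNA replicate 2) to 3183. Genes called higher and lower were 2958 and 2887 with quantile normalization, and the fold change of *DUSP6* lay between -2.13 and -1.97, or -2.22 and -1.76 without 1 library. Of 252 counts over the gene lists, 220 stayed within 1.5 times and 32 moved. The cause of these changes was not tested.

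In the fit with a replicate block the call of *MYC* was lower (log2 fold change -0.51, limma adjusted p = 0.00610), 3 members were lower, and 2495 genes were higher and 3096 lower. The labels do not say whether same-numbered libraries belong together. Over all genes tested, deviations of same-numbered libraries correlated at 0.01, 0.09 and -0.08, and not every library correlated best with its own number. Such a correlation cannot show whether a smaller set of genes was paired, and this was not tested.

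Between pairs of libraries of the same group, the spread exceeded counting noise, at a chi-square of 6.9 to 212 per degree of freedom. *MYCL*, *MYCN* and *MLXIPL* also rest on few reads. Whether more libraries or more depth would change the calls was not tested.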

Other observations

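The genes whose log2 values followed those of *MYC* most closely over the 6 libraries were *CTU1*, a tRNA thiolation enzyme (Pearson r = 0.99), *METTL1*, a tRNA methyltransferase (r = 0.98), and *NOL7*, a nucleolar protein (r = 0.97). These are the 3 highest of all genes tested, given as a description over libraries that share the same groups and scaling. *METTL1* had values of 28.9, 20.9 and 25.4 with scrambled siRNA and 22.9, 17.8 and 22.2 with *DUSP6* siRNA, so that it stood in the same order as *MYC* in all 6 libraries. None of the 3 genes was called between the groups by limma (adjusted p = 0.405, 0.193 and 0.505). Exons of other genes cover 23.8% of those of *NOL7* and 11.3% of those of *METTL1*, so their values are uncertain.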
